A study of Mus musculus with 4 samples.

Results

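Meis2, Ebf1, Isl1, Foxp1, Foxp2, Six3 and Zfp503 are transcription factor genes of the lateral ganglionic eminence (LGE) and of the striatum that forms from it. These 7 genes, of 32285 features in the count matrices, were chosen by symbol. They were followed in progenitors and neurons of the medial ganglionic eminence (MGE), the neighbouring proliferative zone of the embryonic ventral forebrain, in cells with and without a transcript of Lhx6 or Nkx2-1. Each of the 7 symbols named 1 feature, and all 7 had counts in all 4 libraries.

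Single-cell RNA sequencing in 10x Genomics droplets had been performed on MGE of mouse embryos at e14.5. The study had 2 libraries with the genotype St18(-/-), called null, and 2 wildtype libraries, called WT. All embryos came from St18 heterozygous parents, on a strain mix of C57/BL6 and ICR, and MGE was pooled by genotype before dissociation. Per the study's methods, the null allele had been made from a conditional allele with a germline E2a-Cre driver, so that it was lost in every cell, and WT embryos were littermates. The number and sex of the pooled embryos were not stated. St18 is a zinc finger transcription factor gene of the Myt family, and null was compared with WT to ask how its loss alters the cells that the MGE makes.

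As background, the LGE and the MGE lie side by side in the embryonic ventral forebrain and both make GABAergic neurons. LGE progenitors give rise mainly to the projection neurons of the striatum, which form a direct and an indirect pathway, and to interneurons of the olfactory bulb. MGE progenitors are set apart by Nkx2-1, which acts upstream of Lhx6, and give rise to cortical and striatal interneurons, pallidal neurons and cholinergic neurons. The 7 genes are used as markers of LGE cells, but several also act elsewhere, Isl1 in cholinergic neurons and Meis2 and Foxp1 in several regions of the forebrain.

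The libraries stood apart in several ways before any member was compared. St18, of which the null allele lacks only some exons, was read first. Expression is given in CPM, the UMI counts of a gene per 1000000 UMIs of the class of cells in that library (UMIs, unique molecular identifiers, count molecules). The neurons of the library labelled null replicate 1 held 24.9 CPM of St18, those of null replicate 2 held 77.0, those of WT replicate 1 held 44.5 and those of WT replicate 2 held 58.6. Null replicate 2 was thus above both WT libraries, and is meant by its label below. In the sizes of the neuron clusters N3 and N4, given with the genotype comparison, it stood on the side of null replicate 1. Neurons of the null libraries held 598 and 1475 CPM of Xist, whereas the WT libraries had 3 and 1 UMIs, so the pools also differed in sex. The matrices held between 70991150 and 92984713 UMIs per library, and 3758 to 6279 cells per library remained, with a median of 6152 to 9224 UMIs per cell. Null replicate 2 was the deepest per cell, and pairs of libraries shared 4 to 11 cell barcodes.

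Clustering, from which the 7 genes had been left out, gave 10102 neurons in 22 clusters (N0 to N21) and 7883 progenitors in 18 clusters (P0 to P17). Neurons N15 (267 cells) and N19 (175 cells) met the rule for an LGE-like name, each with Pbx3, Pde10a and Mn1 among the 17 LGE markers in the list. Of the defining genes of mature striatal neurons, Drd1 stood at 7.61 CPM in these 442 cells and at 0.172 CPM in the other neurons, and Ppp1r1b at 0.331 and 0.0939 CPM. A UMI of Drd1 was found in 4.98% of the 442 cells and of Ikzf1 in 0%. Other markers in the list did not set these cells apart, such as Tac1 at 5.62 CPM against 21.3 CPM and Gucy1a1 at 149.5 CPM against 169 CPM in the other neurons, or Tshz1, found in 12.2% of cells against 13.95%. The name thus rests on part of the list. The other neurons include clusters N9 and N16, which had some of the LGE markers but too few for the name. Progenitor cluster P16 (48 cells) was LGE-like by the same rule.

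The windows around the RefSeq start sites of the 7 genes were read for the sequences that factors of the MGE or of the list itself are known to bind. RefSeq (GRCm38.p6) gave 9 windows of 300 bases, from 250 bases before to 50 after a start, for 6 of the 7 genes, and none was given for Foxp2. Of these, 3 held a match on either strand, and are shown because they are the members' own control regions. Capitals mark TGACAG (bound by MEIS factors) or its reverse complement, TAATTA (bound by LIM homeodomain factors) and CAAGTG (bound by NKX2-1). The Six3 window lies on chr17:85620584-85620883 (+), the Ebf1 window, the second of 2, on chr11:44619978-44620277 (+), and the Foxp1 window, the second of 3, on chr6:99266466-99266765 (-).
Six3: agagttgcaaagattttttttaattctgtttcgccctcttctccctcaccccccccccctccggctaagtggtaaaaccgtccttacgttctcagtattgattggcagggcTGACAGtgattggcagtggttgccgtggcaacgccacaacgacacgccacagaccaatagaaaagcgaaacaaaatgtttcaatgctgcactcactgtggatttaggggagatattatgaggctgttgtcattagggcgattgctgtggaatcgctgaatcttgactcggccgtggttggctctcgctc
Ebf1: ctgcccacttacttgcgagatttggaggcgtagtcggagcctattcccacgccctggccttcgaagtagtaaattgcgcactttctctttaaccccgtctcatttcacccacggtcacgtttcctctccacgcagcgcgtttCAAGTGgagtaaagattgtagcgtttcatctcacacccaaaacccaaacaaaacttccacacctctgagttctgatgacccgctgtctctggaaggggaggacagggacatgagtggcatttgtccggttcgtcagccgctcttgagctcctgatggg
Foxp1: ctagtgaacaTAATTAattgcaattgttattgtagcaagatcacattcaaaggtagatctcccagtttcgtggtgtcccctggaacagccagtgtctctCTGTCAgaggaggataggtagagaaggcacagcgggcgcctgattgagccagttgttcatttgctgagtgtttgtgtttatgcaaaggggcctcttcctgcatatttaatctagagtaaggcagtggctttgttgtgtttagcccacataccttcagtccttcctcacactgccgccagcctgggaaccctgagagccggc
Of all 32851 windows, 19.2% held TGACAG, 5.29% held TAATTA and 13.6% held CAAGTG, on either strand and with overlaps between motifs allowed. Among the members, 2 of 9 windows held TGACAG, 1 held TAATTA and 1 held CAAGTG. The EBF palindrome, the motif of the EBF factors, was in 0.904% of all windows and in 0 of the 9. A match is only a run of letters and is no measured binding.

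In the GENCODE M21 annotation of GRCm38, the 7 genes are protein-coding and lie on 6 chromosomes. Meis2 lies on chr2:115863064-116065839 (-), Ebf1 on chr11:44617317-45008091 (+), Isl1 on chr13:116298281-116309689 (-) and Zfp503 on chr14:21983959-21989601 (-). Foxp1 on chr6:98925338-99522721 (-) and Foxp2 on chr6:14901349-15441977 (+) share a chromosome but are far apart. Six3, on chr17:85613608-85629302 (+), overlaps Six3os1 and Gm28528 on the opposite strand, Ebf1 overlaps Gm12158 on the opposite strand, and Foxp1 overlaps Gm20705 on its own strand, all of which are features of the matrices.

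The first question was where in the path from progenitor to neuron each gene was expressed. Summed over all cells of a class, Ebf1, Zfp503, Isl1 and Foxp2 were higher in neurons, Meis2 was higher in progenitors, and Foxp1 and Six3 did not pass the test. Over all 13760 genes tested, 80.6% passed in either direction (40.9% higher and 39.7% lower in neurons), so passing this test sets no gene apart from the rest. All tests of a class are edgeR quasi-likelihood tests on counts summed per library, with Benjamini-Hochberg adjustment over all genes and a threshold of 0.05. With library as a block, the p-values between classes measure the spread of the class difference over these 4 libraries of pooled embryos. Those of null against WT rest on the spread between libraries of a genotype.

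Ebf1, a factor needed for differentiation of direct-pathway striatal neurons, stood in progenitors at 7.83, 19.1, 7.31 and 9.35 CPM, where the first pair is null replicates 1 and 2 and the second pair WT replicates 1 and 2, an order used for all lists of 4 libraries below. In neurons it stood at 333, 372, 331 and 216 CPM. Every neuron value was above every progenitor value, and the log2 fold change was 4.84 (SE 0.12, edgeR adjusted p = 7.3e-17). Zfp503, the zinc finger repressor also known as Nolz1, had a log2 fold change of 3.24 (SE 0.11, edgeR adjusted p = 8.13e-15), from 2.77 to 10.9 CPM in progenitors to 36.1 to 72.0 CPM in neurons. Isl1, a LIM homeodomain factor of direct-pathway and cholinergic neurons, rose by 2.01 on the log2 scale (SE 0.058, edgeR adjusted p = 5.91e-16). Foxp2, a forkhead factor of striatal and other projection neurons, rose by 1.84 (SE 0.061, edgeR adjusted p = 5.35e-15). The 4 libraries of neurons and of progenitors did not overlap for any of these 4 genes, as in 55% of all genes tested.

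Meis2, a TALE homeodomain cofactor found in LGE progenitors and their neurons, stood at 406, 457, 377 and 254 CPM in progenitors and at 339, 348, 300 and 187 CPM in neurons. The neuron value was lower within each of the 4 libraries, although the ranges of the classes overlapped. The log2 fold change was -0.41 (SE 0.037, edgeR adjusted p = 9.23e-09). Without the library block the call was lost (edgeR adjusted p = 0.0728). Foxp1, a forkhead factor of striatal projection neurons, had a log2 fold change of 0.04 (SE 0.066, edgeR adjusted p = 0.568). Six3, a homeodomain factor of anterior forebrain and indirect-pathway neurons, had -0.09 (SE 0.045, edgeR adjusted p = 0.086). Without WT replicate 2 these last 2 also passed the test, with 7 of 7 members past the threshold. For Meis2, Foxp1 and Six3 the order of the classes differed with the split by Lhx6 or Nkx2-1. In cells without either transcript, neurons were above progenitors. The means were 1119 against 700 CPM for Meis2, 211 against 74.4 for Foxp1 and 264 against 139 for Six3. In cells with either, neurons were below, at 140 against 342, 57.7 against 75.9 and 36.1 against 67.1 CPM. Each order held within each of the 4 libraries, and was not tested.

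The second question was how the members divided over neurons with and without a transcript of the MGE factors Lhx6 or Nkx2-1. In neurons without either, all 7 members were at higher levels, between 3.63 and 13.3 times those in neurons with them on the fitted scale, and 7 of 7 passed the test. Over all 12197 genes tested in this comparison, 18.9% were lower in neurons with Lhx6 or Nkx2-1 and 35.5% passed in either direction. The split held 8475 neurons with and 1627 without a UMI of either gene.

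Meis2 stood at 163, 208, 115 and 76.2 CPM in neurons with Lhx6 or Nkx2-1 and at 1209, 1417, 1103 and 748 CPM in those without. The lowest library without was above the highest library with, and the log2 fold change of with over without was -3.04 (SE 0.064, edgeR adjusted p = 5.75e-15). Ebf1 stood at 104, 178, 91.7 and 65.3 CPM with and at 1460, 1852, 1371 and 982 CPM without. Its difference was the widest on the log2 scale, at -3.74 (SE 0.064, edgeR adjusted p = 9.44e-16).

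Zfp503 stood at 18.2, 37.3, 15.8 and 11.1 CPM with and at 242, 337, 245 and 163 CPM without, a log2 fold change of -3.62 (SE 0.093, edgeR adjusted p = 5.32e-14). Isl1 stood at 44.5, 57.3, 45.9 and 47.0 CPM with and at 460, 490, 414 and 300 CPM without, a log2 fold change of -3.10 (SE 0.080, edgeR adjusted p = 5.32e-14). The groups of libraries did not overlap in either gene. Six3 stood at 41.4, 44.0, 27.9 and 31.2 CPM with and at 271, 284, 240 and 259 CPM without, a log2 fold change of -2.87 (SE 0.066, edgeR adjusted p = 1.26e-14).

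The 2 forkhead genes had the smaller differences. Foxp2 stood at 24.5, 31.0, 23.3 and 25.5 CPM with and at 133, 243, 156 and 102 CPM without, with a log2 fold change of -2.59 (SE 0.11, edgeR adjusted p = 3.58e-11). Foxp1 stood at 59.9, 78.7, 44.9 and 47.4 CPM with and at 245, 314, 183 and 102 CPM without, with a log2 fold change of -1.86 (SE 0.10, edgeR adjusted p = 9.27e-10). For Foxp1 the lowest library without lay at 102 CPM, in WT replicate 2, still above the highest library with. The libraries of the groups thus did not overlap for 7 of 7 members, as for 19.9% of all genes tested. The direction and the call of all 7 held under each alternative tried, the separate removal of each library included.

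**Figure D1:**
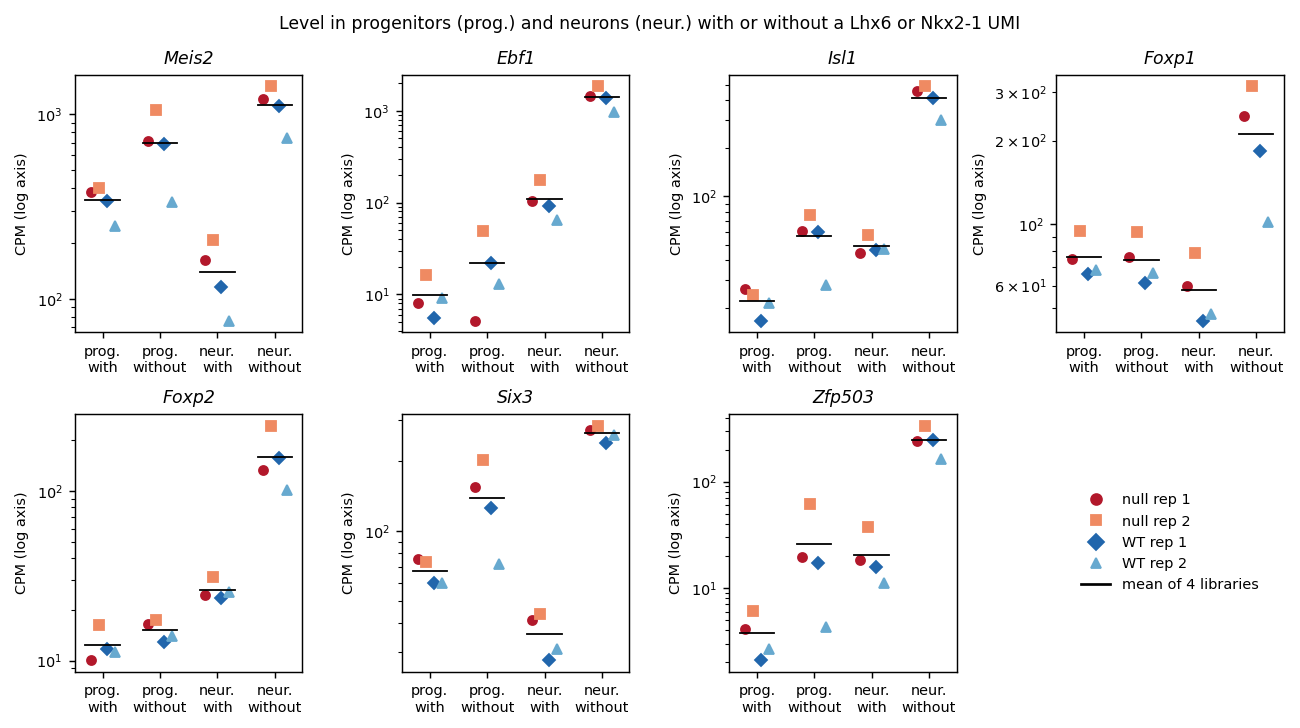
Level of each member in CPM (logarithmic axis) in progenitors and neurons with or without a Lhx6 or Nkx2-1 UMI, with 1 point for each of the 4 libraries and a line at their mean. In neurons all 7 genes are higher without than with in every library, whereas the progenitor groups overlap for every gene but Isl1, and WT replicate 2 is the lowest point of most neuron groups without Lhx6 or Nkx2-1.

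In progenitors the division was narrower. There 5 of 7 members were lower with Lhx6 or Nkx2-1, against 14.9% of the 12084 genes tested that were lower and 29.7% that passed in either direction. Zfp503 differed by -2.77 (SE 0.23, edgeR adjusted p = 1.37e-08), from 4.11, 6.07, 2.10 and 2.65 CPM with to 19.4, 61.9, 17.2 and 4.30 CPM without. The value of 4.30 CPM in WT replicate 2 rests on 4 UMIs and lies within the range of the progenitors with, so these groups overlapped. Isl1 differed by -1.42 (SE 0.14, edgeR adjusted p = 1.15e-07), Six3 by -1.09 (SE 0.11, edgeR adjusted p = 9.57e-08) and Meis2 by -1.02 (SE 0.085, edgeR adjusted p = 1.14e-08).

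Ebf1 differed by -1.15 (SE 0.25, edgeR adjusted p = 0.00128) in progenitors, but stood at only 5.16, 48.5, 21.7 and 12.9 CPM without against 8.07, 16.3, 5.56 and 9.08 CPM with. Null replicate 1 went the other way, and the call was lost without null replicate 2, with DESeq2, without the library block and with the split made on thinned counts. Foxp2 differed by -0.35 (SE 0.16, edgeR adjusted p = 0.113), and passed the threshold under 1 alternative. Foxp1 differed by 0.00 (SE 0.075, edgeR adjusted p = 0.998), with 74.8, 94.6, 66.2 and 68.1 CPM with and 76.1, 93.7, 61.1 and 66.7 CPM without. For Foxp1 the groups of progenitors overlapped almost wholly, whereas those of neurons lay apart.

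The split itself carries error, because a transcript can be missed in a cell and free RNA can enter a droplet. After each cell was thinned to 3000 UMIs, Lhx6 or Nkx2-1 was found in 72.9% of neurons and 73.3% of progenitors. It was found in 7.19% of 153 erythroid cells (exact 95% interval 3.64 to 12.5%), which should lack both. The median depth before thinning was 5987.5 UMIs in neurons, 9033 in progenitors and 11387 in erythroid cells. On counts as deposited, by which the cells were split for the levels and tests, either transcript was found in 24.2% of erythroid cells. It was found there in 83.9% of neurons and 89.4% of progenitors. Of the neuron clusters where members were high, 8.57% of cells in N19 and 8.89% in N16 had either transcript, within the erythroid interval. The share was 13.1% in N15 and 13.3% in N9, just above it, 30.5% in N20, 66.99% in N21 and 83.5% in N12. The cluster led by microglial genes (96 cells), which should lack both genes too, had 17.7% (exact 95% interval 10.7 to 26.8%), an interval that holds N15 and N9. On counts as deposited its share was 42.7%.

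Detection per cell showed the same division at equal depth. Among neurons without Lhx6 or Nkx2-1 on thinned counts, a Meis2 UMI was found in 44.4%, against 14.6% of those with and 2.61% of erythroid cells. The shares for Isl1 were 30.7%, 4.22% and 0.654%, and those for Ebf1 24.6%, 3.52% and 0%. Of the 153 erythroid cells, 0 had an Ebf1 or a Zfp503 UMI, which allows a share of up to 1.96%. The shares for Zfp503 were 24.5% and 2.13%, for Six3 14.7% and 6.15%, for Foxp1 18.4% and 11.6% and for Foxp2 12.4% and 2.95%, without and with in that order. Foxp2 was found in 1.96% of erythroid cells, with an exact 95% interval of 0.406 to 5.62% that includes the share in neurons with Lhx6 or Nkx2-1. For Zfp503, the exact 95% interval of 0 in 153 erythroid cells reaches above 1.96% and includes the 2.13% of neurons with. By the share of cells alone, Foxp2 and Zfp503 in these neurons as a whole are not separated from erythroid cells. The erythroid cells were deeper before thinning, with a median of 11387 UMIs against 5987.5 in neurons. Whether free RNA makes up the same part of both was not tested, for any of the members.

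**Figure D2:**
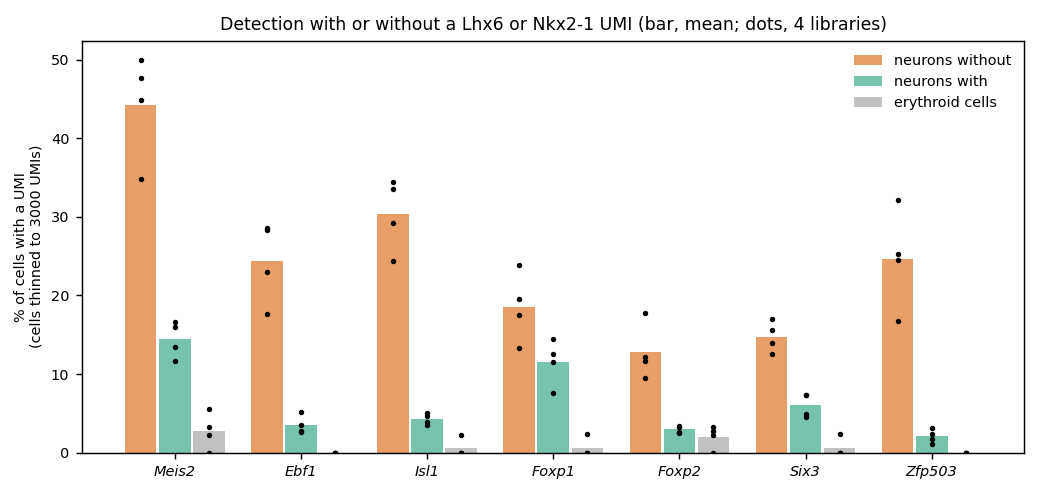
Share of cells with a UMI of each member after thinning to 3000 UMIs, in neurons without and with a Lhx6 or Nkx2-1 UMI and in erythroid cells, as bars (mean of the 4 libraries) with a dot for each library. Meis2 reaches 44.4% of all neurons without Lhx6 or Nkx2-1, and Foxp1 has the closest pair of neuron bars.

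Free RNA gave a further reference. In barcodes with under 100 UMIs, taken as background droplets, Meis2 stood at 212, 206, 222 and 144 CPM and Ebf1 at 102, 113, 101 and 74.0 CPM. Neurons with Lhx6 or Nkx2-1 were below the background droplets in 3 of 4 libraries for Meis2 and in 2 of 4 for Ebf1. Zfp503 was at 21.7, 28.4, 21.1 and 15.7 CPM in these droplets, and its level in neurons with was lower in 3 of 4 libraries. Null replicate 2 was the exception for Meis2 and Zfp503. Six3 in neurons with was lower than in droplets in 4 of 4 libraries, Foxp1 in 2 of 4 and Isl1 in 1 of 4. Foxp2, at 14.8, 18.04, 22.2 and 23.6 CPM in droplets, was higher in neurons with in 4 of 4. Progenitors held Ebf1 at 7.31 to 19.1 CPM, below the droplets in each library. The part of free RNA in the levels of neurons with Lhx6 or Nkx2-1 was not tested.

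Several of the genes were often found in the same cell in neurons without Lhx6 or Nkx2-1, and seldom in those with. On thinned counts, 3 or more of the 7 genes were found in 33.5% of neurons without Lhx6 or Nkx2-1 and in 2.70% of those with. Exactly 1 was found in 16.0% and 25.5%, and none of the 7 in 38.9% and 66.8%, in the same order. In LGE-like neurons 3 or more were found in 69.2% of cells, in erythroid cells in 0%. In progenitors the shares with 3 or more were 8.89% without and 3.67% with.

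Pairs of the genes were read over all neurons. Of neurons with a Zfp503 UMI, 80.9% had a Meis2 UMI, against 17.5% of the other neurons, and 59.8% had an Isl1 UMI against 7.07%. Of neurons with an Ebf1 UMI, 61.95% had Isl1 against 6.24%, and of those with Isl1, 50.3% had Ebf1 against 3.97%. Six3 went with some of the genes and not with others. Of neurons with a Six3 UMI, 49.1% had Meis2 against 20.3%, 25.6% had Isl1 against 10.1% and 22.7% had Zfp503 against 6.84%. However, 12.6% had Ebf1 against 8.92%, 6.31% had Foxp2 against 5.44%, and 13.3% had Foxp1 against 13.5%. Neurons with a Foxp1 UMI had Meis2 in 34.5% against 20.9%, Ebf1 in 23.3% against 7.06% and Foxp2 in 15.6% against 3.95%.

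**Figure D3:**
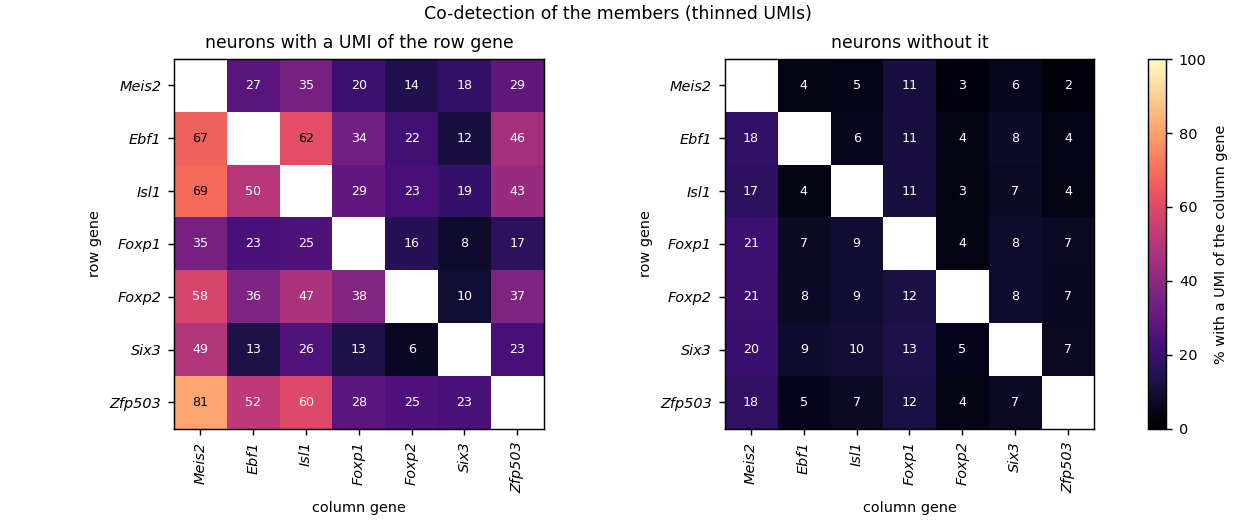
Percent of neurons, over all 4 libraries and after thinning, with a UMI of the column gene among neurons with a UMI of the row gene (left) and among the other neurons (right). Zfp503 cells reach 81% for Meis2, and the Six3 row is close to the other neurons for Ebf1, Foxp1 and Foxp2.

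The same order was seen across clusters, where the genes fell into several separate places. In 6 of the 22 neuron clusters under 1 in 3 cells had Lhx6 or Nkx2-1 on thinned counts (N9, N14, N15, N16, N19 and N20). These 6 held 15.1% of neurons, and 94.0% of the neurons' Ebf1 UMIs, 92.8% of Zfp503, 84.8% of Isl1, 82.0% of Meis2, 72.1% of Six3, 72.0% of Foxp2 and 53.7% of Foxp1. Nearly all Ebf1 and Zfp503 RNA of neurons thus came from a small set of cells. WT replicate 2 had less in the set for 3 genes, with 32.6% of Foxp1 against 54.4% to 60.5% in the other libraries, 48.8% of Foxp2 against 73.2% to 77.6% and 70.1% of Isl1 against 84.7% to 89.3%. The Foxp1 RNA outside the set lay partly in N12, where 83.5% of cells had Lhx6 or Nkx2-1.

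Ebf1 had its peak in N9, with a mean of 4293 ± 364 CPM (SD over 4 libraries), and in N16, with 2592 ± 343 CPM, where both lay apart from each other and from the next cluster. N9 was led by Ebf1 and Zfp503 and N16 by Crabp1, Nefl, Sybu and Rarb, and neither met the rule for a name. Of the LGE markers, N9 had Pde10a and Mn1 and N16 had Rarb and Pde10a, where the rule needs at least 3. Their 422 and 225 cells are thus outside the LGE-like class in its share and tests. Within N9 Ebf1 stood at 3982, 4798, 4311 and 4079 CPM, and N9 alone held 58.9% of all Ebf1 UMIs in neurons and progenitors. N16 had the highest level of Isl1 (1060 ± 142 CPM) and of Foxp1 (641 ± 292 CPM). The Foxp1 range in N16 ran from 247 CPM in WT replicate 2 to 948 CPM in null replicate 2 and overlapped that of N9, the next cluster.

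Meis2 and Six3 had their peaks elsewhere. LGE-like N19 had the highest Meis2 (2443 ± 305 CPM) and by far the highest Six3 (1874 ± 145 CPM, with 1934, 2037, 1698 and 1827 CPM in the libraries). Its Six3 range lay clear of the next cluster, P16 (521 ± 129 CPM, n = 3 libraries with at least 10 cells). Meis2 was also high in P16 (2302 ± 570 CPM, n = 3), N20 (2144 ± 150 CPM, n = 3) and LGE-like N15 (2062 ± 344 CPM, n = 4), and these neighbours in the order overlapped. N20 was led by Slc18a2, a vesicular monoamine transporter gene. Ebf1, in contrast, stood in N19 at 62.8 ± 59.7 CPM and in N20 at 19.8 ± 10.8 CPM (n = 3), so these 2 clusters were high in Meis2 and Six3 and low in Ebf1. Both Ebf1 clusters also held Meis2, N16 at 1321 ± 125 CPM and N9 at 1104 ± 231 CPM.

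Zfp503 and Foxp2 were led by LGE-like N15, at 496 ± 102 CPM and 406 ± 109 CPM. N9 followed at 441 ± 98.7 CPM for Zfp503, within the spread of N15, and at 255 ± 65.3 CPM for Foxp2, where no library of N9 reached the lowest of N15. Foxp2 was found next in N12 (179 ± 75.9 CPM), an MGE-type cluster by its share with Lhx6 or Nkx2-1, led by Csmd1, Peg10 and Gbx2. For Foxp1, N12 followed N16 and N9, at 172 ± 23.6 CPM. Both forkhead genes were thus high also in a cluster where most cells had Lhx6 or Nkx2-1. Whether the same cells of N12 held both was not tested.

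Isl1 had places of its own in clusters where most cells had Lhx6 or Nkx2-1. In N21, which met the rule for a basal forebrain cholinergic-like name and was led by Slc18a3 and Chat, the vesicular transporter and the synthetic enzyme of acetylcholine, Isl1 stood at 532, 438, 707 and 684 CPM. In this cluster 66.99% of cells had Lhx6 or Nkx2-1, and 69.9% had Isl1. Progenitor cluster P15 was led by Isl1, Cdkn1c and Gsx1, had Lhx6 or Nkx2-1 in 85.0% of cells and stood at 387 ± 89.9 CPM of Isl1. Zfp503 in P15 was at 5.21 ± 6.11 CPM. LGE-like progenitors P16, by contrast, had all of Meis2, Six3, Zfp503 (344 ± 166 CPM) and Isl1 (303 ± 24.9 CPM), and were led by Zfp503 and Zfhx3.

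**Figure D4:**
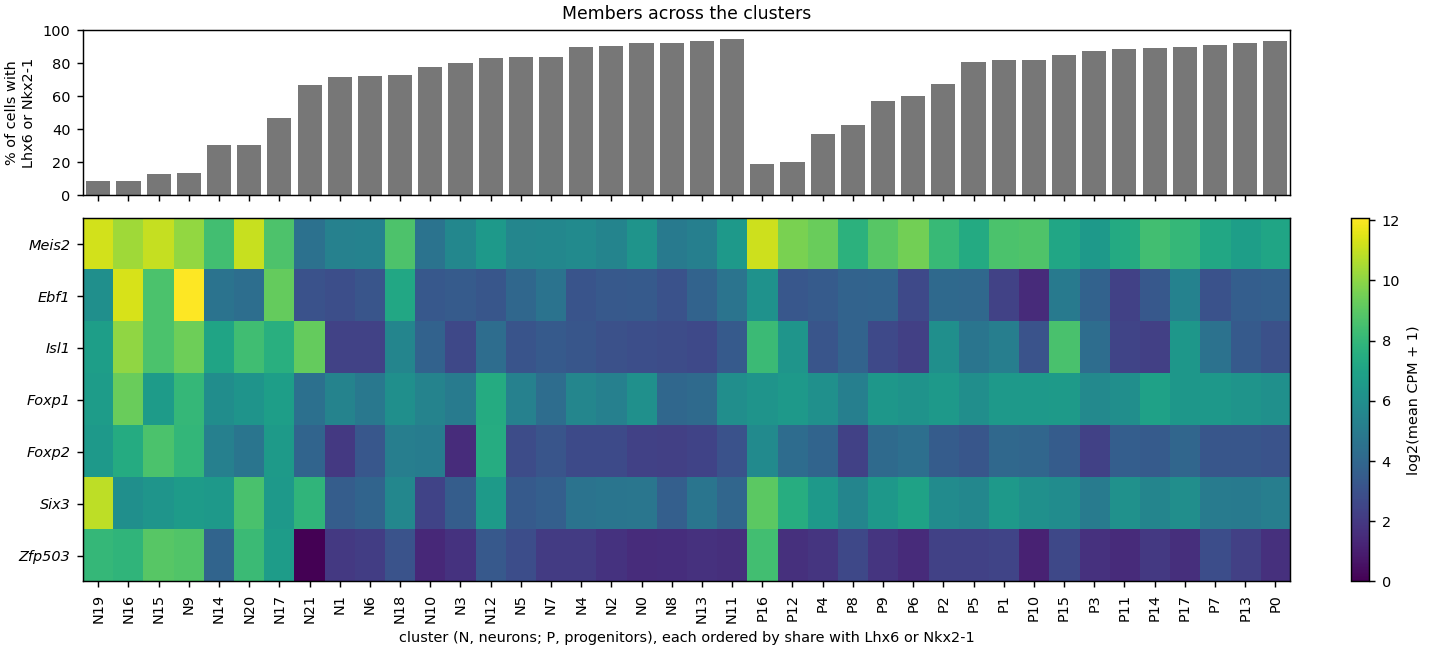
Upper panel, percent of cells of each cluster with a Lhx6 or Nkx2-1 UMI after thinning; lower panel, log2 of mean CPM + 1 of each member in that cluster, over libraries with at least 10 cells. Values are high towards the left of the neuron block, where the 6 clusters with under 1 in 3 such cells stand, with Isl1 in N21 and P15 and Foxp1 and Foxp2 in N12 as separate high places.

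Over the 40 clusters the genes most like each member in level were named by Pearson's correlation of log2(CPM + 1), as a description over clusters that share libraries. Six3os1 came first for Six3 (r = 0.91). It overlaps Six3 on the opposite strand, and whether strand was used in counting was not stated. Sharing of reads between the pair was not tested. Meis2 was most like G630016G05Rik (r = 0.90), Ebf1 most like Stra6l (r = 0.89) and then Rarb (r = 0.83), a retinoic acid receptor gene. Zfp503 followed Gm39244 (r = 0.87), Foxp2 followed its relative Foxp4 (r = 0.85), Foxp1 followed Asb4 (r = 0.83) and Isl1 followed Zfhx3 (r = 0.78). Zfhx3, a zinc finger homeobox gene, was among the first 3 for Isl1, Foxp2 and Zfp503.

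Other genes of the LGE and of the striatum were read from lists. Of 5 striatal neuron genes tested among 12 in the list, 5 were lower in neurons with Lhx6 or Nkx2-1 and 0 higher. Their median log2 fold change was -3.23 against 0.01 over all genes. The filter on low counts keeps a gene that reaches it in either class, so a scarce gene can enter through its higher class alone. The count and the median of this list were thus in part set by the filter, and no conclusion is drawn from them. Drd1, a dopamine receptor of direct-pathway neurons, had -4.08 (SE 0.51) and Tac1, the gene of substance P, -3.23 (SE 0.21). Of 11 other LGE transcription factors tested, 4 were lower and 2 higher, with Rarb at -3.15 (SE 0.19), Pax6 at -3.13 (SE 0.23) and Etv1 at 2.35 (SE 0.082). Of 8 relatives of the members, 5 were lower and 1 was higher, with Foxp4 at -2.32 (SE 0.14), the TALE gene Pbx3 at -1.85 (SE 0.075) and Ebf4 at 1.60 (SE 0.29). Of all genes tested, 18.9% were lower and 16.6% higher. LGE factors as a list thus did not all go with the 7 members.

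Of 9 MGE factors, which include Lhx6 and Nkx2-1 by which the cells were split, 8 were higher in neurons with them, 2 of these by the split itself, against 16.6% of all genes tested. Lhx8, a LIM homeodomain factor of cholinergic neurons, had 2.29 (SE 0.11) and Sox6 2.24 (SE 0.10). In progenitors, Pax6 differed by -2.76 (SE 0.23) and Sp9 and Bcl11b, which are on the LGE list but are also used in the MGE, by 1.79 (SE 0.067) and 1.51 (SE 0.065). Lhx8 stood at 209 to 333 CPM in neurons with and at 34.7 to 100.3 CPM in neurons without. Summed MGE markers stood at 1661 to 1886 CPM and at 193 to 286 CPM, but hold Lhx6 and Nkx2-1, which the split itself sets to 0 in neurons without. Summed LGE markers, which do not contain the members, stood at 1234 to 1649 CPM and 1494 to 2470 CPM. Much of this sum was Bcl11b, at 1352 CPM in LGE-like neurons and 1002 CPM in the other neurons. It was found in 92.3% and 94.4% of their cells, so the sum is a poor measure of LGE cells. Markers of other regions moved with the split too. Summed CGE markers (caudal ganglionic eminence) stood at 321 to 527 CPM with and 500.1 to 796 CPM without, and at 847 to 1040 CPM in LGE-like neurons. Summed pallial markers were higher without in each library, at 7.23 to 141 CPM against 1.75 to 50.8 CPM. The part of these cells in the members' levels was not tested.

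The third question was whether the members differed between null and WT. By the main test, 0 of 7 passed in neurons, progenitors, neurons without or with Lhx6 or Nkx2-1, or LGE-like neurons. Few genes passed at all: 0.0737% in neurons, 0.0294% in progenitors, 0.0384% in neurons without, 0.739% in neurons with and 0.15% in LGE-like neurons. At an unadjusted p under 0.05, 1 member passed in all neurons, 1 in progenitors, 1 in neurons without, 5 in neurons with and 2 in LGE-like neurons. The share of all genes at that level was 17.3%, 17.3%, 10.7%, 18.4% and 10.3% in the same order. By DESeq2, Meis2 alone passed, in neurons with Lhx6 or Nkx2-1.

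WT replicate 2 was low for several members in neurons, and much of the null to WT difference in Meis2 there rested on it. In all neurons, Meis2 stood at 339 and 348 CPM in null and at 300 and 187 CPM in WT, and Foxp1 at 91.0 and 106 CPM in null and at 70.8 and 56.4 CPM in WT. Both null libraries were above both WT libraries in each, as they were or the reverse in 56.1% of genes. The log2 fold change was 0.34 (SE 0.20, edgeR adjusted p = 0.402) for Meis2 and 0.48 (SE 0.14, edgeR adjusted p = 0.17) for Foxp1. Without WT replicate 2 the Meis2 value was 0.03. Over the left-out libraries Foxp1 ran from 0.31 to 0.67. Isl1 and Six3 had -0.03 (SE 0.15) and 0.01 (SE 0.12).

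In neurons with Lhx6 or Nkx2-1, the 5 members at an unadjusted p under 0.05 were all higher in null. Meis2 had 0.79 (SE 0.19, edgeR adjusted p = 0.0831), Zfp503 0.88 (SE 0.28, edgeR adjusted p = 0.153), Ebf1 0.68 (SE 0.22, edgeR adjusted p = 0.153), Foxp1 0.43 (SE 0.13, edgeR adjusted p = 0.149) and Six3 0.39 (SE 0.12, edgeR adjusted p = 0.153). Isl1 and Foxp2 had -0.02 (SE 0.13) and 0.03 (SE 0.14). Both null libraries lay above both WT libraries for the 5 and not for these 2, against 55.8% of all genes whose groups did not overlap. The 5 passed the test when scaled by library totals, with which the median of all genes stood at 0.143 towards null. In that setting far more of all genes passed than by the main test, with the counts given in the last section. Which members passed, if any, changed with the library left out, and each such fit left 1 library in a genotype. Over the left-out libraries Meis2 ran from 0.51 without WT replicate 2 to 1.14 without WT replicate 1. Zfp503 ran from 0.34 to 1.29, Ebf1 from 0.32 to 0.9978 and Foxp1 from 0.29 to 0.59, each lowest without null replicate 2 and highest without null replicate 1. Levels in background droplets, by comparison, were 206 to 212 CPM of Meis2 in null and 144 to 222 CPM in WT. Foxp1 overlapped there too, at 58.2 and 47.2 CPM against 49.9 and 48.3 CPM. In droplets, both null libraries were above both WT libraries for Ebf1 (102 and 113 against 101 and 74.0 CPM). The same held for Zfp503 (21.7 and 28.4 against 21.1 and 15.7 CPM) and Six3 (61.6 and 56.9 against 49.4 and 39.4 CPM). The part of free RNA in these differences was not tested. Summed pallial markers were at 50.8 CPM in this class in null replicate 2 and at 1.75 to 5.79 CPM in the other libraries. Summed CGE markers stood at 448 and 527 CPM in null and at 321 and 393 CPM in WT. Summed LGE markers, much of them Bcl11b, stood at 1398 and 1649 CPM in null and at 1254 and 1234 CPM in WT. Summed cholinergic markers stood at 396 and 346 CPM in null and at 431 and 565 CPM in WT. The part of these cells in the result was not tested. On counts as deposited, 16.5%, 11.8%, 18.7% and 16.8% of neurons had neither Lhx6 nor Nkx2-1, the least in null replicate 2. Median UMIs per neuron were 5924, 8154, 5490 and 5508.5. The part of depth in these differences was not tested, and the split on thinned counts was not tried for them.

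Neurons with Lhx6 or Nkx2-1 also lay in different clusters in the 2 genotypes. N3 (led by Npy, S100a10 and Rnd2, with either transcript in 80.3% of cells) held 3.32% and 0.848% of the null libraries' neurons, but 16.2% and 13.7% of those in the WT libraries. N4 (led by Neb, Rfx4 and Epha4, 89.6% of cells) held 5.97% and 15.7% of the null neurons, but 1.72% and 1.39% of the WT neurons. The members were low in both, with Meis2 at 47.7 ± 13.6 CPM in N3 and 52.9 ± 13.3 CPM in N4, and Ebf1 at 10.1 ± 5.32 CPM and 7.72 ± 5.29 CPM (SD, n = 4 libraries). The part of these cluster sizes in the genotype values was not tested.

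In neurons without Lhx6 or Nkx2-1, where the members were high, Foxp1 had 0.83 (SE 0.22, edgeR adjusted p = 0.154), from 245 and 314 CPM in null to 183 and 102 CPM in WT. Over the left-out libraries it ran from 0.46 without WT replicate 2 to 1.33 without WT replicate 1. Meis2, Ebf1, Zfp503, Foxp2 and Isl1 had between 0.28 and 0.39, and Six3 had 0.03 (SE 0.15). The libraries of null lay above those of WT for 5 of 7 members, against 45.8% of all genes whose groups did not overlap in either direction, and overlapped for Foxp2 and Zfp503. WT replicate 2 was the lowest library for 6 of the 7 genes, with Six3 the exception. The calls of members in this class changed with the library left out. In each such fit 1 library was left in a genotype, and more of all genes passed than by the main test.

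In LGE-like neurons, Ebf1 stood at 261 and 450 CPM in null and at 245 and 105 CPM in WT, with a log2 fold change of 0.90 (SE 0.24, edgeR adjusted p = 0.119). The WT replicate 2 value rests on 58 UMIs. The fold change was 0.42 without WT replicate 2 and 1.67 without WT replicate 1. Ebf1 passed the test with no filter on low counts, with which more of all genes passed too. Six3 stood at 861, 724, 773 and 824 CPM and Isl1 at 291, 291, 309 and 236 CPM, with log2 fold changes of -0.10 (SE 0.16) and 0.00 (SE 0.18). In progenitors, Zfp503 had 1.08 (SE 0.32, edgeR adjusted p = 0.194), from 5.37 and 10.9 CPM in null to 3.75 and 2.77 CPM in WT, a level based on 37 UMIs in WT replicate 2. It was 0.58 without null replicate 2 and 1.47 without null replicate 1. Zfp503 passed the test with no filter, with which more of all genes passed too.

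**Figure D5:**
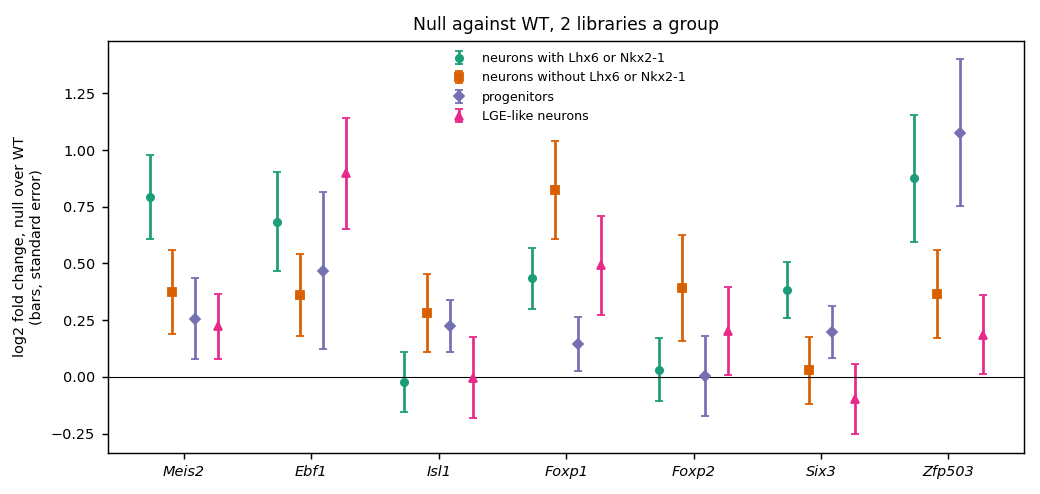
Log2 fold change of null over WT for each member in 4 classes of cells, with standard errors from edgeR (2 libraries in each group). No point passed the adjusted threshold of 0.05; Meis2, Ebf1, Foxp1, Six3 and Zfp503 in neurons with Lhx6 or Nkx2-1 lie between 0.39 and 0.88, and Isl1 and Foxp2 in the same cells lie near 0.

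Whether the genotype difference itself differed between neurons with and without Lhx6 or Nkx2-1 was tested as an interaction, with library as a block. Meis2 passed, at 0.39 on the log2 scale (SE 0.067, edgeR adjusted p = 0.0123), the only 1 of 7 members, against 0.164% of the 12795 genes tested. Its ratio of with over without, from the values above, was higher in both null libraries than in both WT libraries. Zfp503 had 0.44 (SE 0.15, edgeR adjusted p = 0.336), Six3 0.34 (SE 0.10, edgeR adjusted p = 0.221) and Foxp1 -0.42 (SE 0.16, edgeR adjusted p = 0.402). The Meis2 call was lost with DESeq2, where the value was 0.43, with doublets kept, at 0.30, with the split made on thinned counts, at 0.16, and without null replicate 2, at 0.38. Over all left-out libraries the value ran from 0.37 to 0.54.

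The shares of neurons without Lhx6 or Nkx2-1 and of LGE-like cells were compared too. Of neurons, 27.4%, 23.3%, 29.7% and 27.3% had neither Lhx6 nor Nkx2-1 on thinned counts, a mean of 25.4 ± 2.88% in null and 28.5 ± 1.72% in WT (two-sided exact permutation p = 0.667). LGE-like cells made up 4.16%, 5.04%, 4.51% and 3.91% of neurons (exact permutation p = 0.667). With 2 libraries against 2 the smallest p possible is 0.333. The 6 neuron clusters with under 1 in 3 cells with Lhx6 or Nkx2-1, of which N14 was not among the 6 highest clusters for any member, made up 16.3%, 16.2%, 14.8% and 12.6% of neurons. Within them N20 had 51, 44, 64 and 8 cells and N16 had 96, 51, 49 and 29 cells, and progenitor cluster P16 had 16, 20, 11 and 1 cells. WT replicate 2 thus held the fewest cells of each of these 3 clusters. In N20 the WT libraries held 64 and 8 cells, so this difference lay within a genotype. The part of these counts in the lower levels of WT replicate 2, or in the null to WT values, was not tested.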

How the data were processed

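RNA of pooled MGE had been sequenced in 4 libraries, 2 null and 2 WT, from e14.5 embryos. The authors quantified reads with Cell Ranger, version 5.0.1 on GRCm38 per the submitters' processing notes (the file headers name version 4), and deposited matrices of raw UMI counts that hold all barcodes. Replicate numbers follow accession order, since the labels carry none. The 7 members, the gene lists and the tests were chosen with earlier results of these data known.

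Cells needed at least 3000 UMIs, 200 genes and at most 10% mitochondrial UMIs. Doublet scores came from Scrublet (scanpy 1.11.5, 30 principal components). Its own threshold called under 0.05% of cells and was not used, and the highest scores were left out at 0.8% per 1000 cells, 120 to 352 cells a library. Cells were clustered in Seurat 5.3.0 (R 4.3.3) on 2000 variable genes without the members and 49 principal components at resolution 1.4, with the difference of the S and G2M scores regressed out, and neurons and progenitors were clustered again. LGE-like and other names needed at least 3 markers in 25% of cells at a log2 fold of 1. In 3 clusters (N0, N18 and P8) markers of the other class were ahead among the leading genes.

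Sums of counts over the cells of a class in a library were tested in edgeR 4.0.16 (TMM, filterByExpr, quasi-likelihood F-test, Benjamini-Hochberg adjustment, two-sided), with library as a block between classes. Alternatives were DESeq2 1.42.0, library totals, no filter, no library block and each library left out. Others were at least 5000 UMIs, doublets kept and members kept in the clustering. A split on thinned counts was tried for classes with against without and for null against WT in neurons without Lhx6 or Nkx2-1. It was not tried for null against WT in neurons with either transcript. Genes named were the members, up to 4 genes per list with the largest change past the threshold, and the 3 genes most like each member among those with at least 20 CPM in 1 cluster. Shares have exact Clopper-Pearson intervals at 95%, which cover counting error only, and 0 counts allow up to 3. Of the gene identifiers, 99.6% were found in GENCODE M21. No per-sample columns were left unused.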

Additional observations from a re-analysis of the deposited data

Results flagged for a closer look

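By the main test, the difference between null and WT in Meis2 was not the same in neurons with and without Lhx6 or Nkx2-1. The interaction was 0.39 on the log2 scale (SE 0.067, edgeR quasi-likelihood test, adjusted p = 0.0123). The ratio of the 2 classes was higher in 2 of 2 null libraries than in either WT library. Over the alternatives the adjusted p of this value ran from 4.07e-06 to 0.9998, and null replicate 2, whose St18 level was above both WT libraries, was needed for the call, although the value without it was 0.38. Over the left-out libraries the value ran from 0.37 to 0.54. The call was also lost with DESeq2, with doublets kept and with the split made on thinned counts. With doublets kept and on the thinned split the value itself lay below this range.

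Signal of 2 members also appeared in cells that no comparison used. In the cluster led by the microglial genes C1qb, C1qc and C1qa (96 cells), an Ebf1 UMI was found in 25% of cells after thinning (exact 95% interval 16.7 to 34.9%) and a Foxp1 UMI in 14.6% (8.21 to 23.3%). Erythroid cells had 0 of 153 for Ebf1 and 0.654% for Foxp1. Ebf1 stood at 143, 204, 112 and 136 CPM in this cluster, in each of the 4 libraries, above its level in background droplets.

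The cluster was not uniform. On counts as deposited, 29 of its cells had Ebf1, of which 25 had at least 3 UMIs of 5 mural markers, 16 at least 3 of 5 endothelial markers and 3 at least 3 of 6 microglial markers. Of the 67 cells without Ebf1, 1 had mural, 1 had endothelial and 65 had microglial markers at that level. The Ebf1 signal was thus in cells with markers of vessels, joined to microglia by the clustering, and the name of the cluster does not hold for them. Of 36 cells with Foxp1, 19 had mural and 16 had microglial markers. These counts were chosen after the levels were seen.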

How the results depend on the processing

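In neurons with against without Lhx6 or Nkx2-1, all 7 members kept direction and call in each alternative. Sizes below are log2 fold changes. Over the fold changes of members in all comparisons and settings, 632 kept direction and call, 49 changed sign, 45 passed only under the alternative and 9 lost the call. All 91 of that first comparison were among the 632. No paired analysis was possible because the labels carry no replicate numbers that would tie a null to a WT library. The alternative that left out N0, N18 and P8 was chosen after seeing the data. Leaving out a library left 1 library in a genotype, which was assumed to vary like the others. Each null to WT value rests on 2 pools a genotype, and the lowest counts of members on few UMIs, such as 37 for Zfp503 in progenitors of WT replicate 2. With library totals the median of all genes for null against WT stood at 0.147 in neurons, 0.187 in progenitors, 0.121 in neurons without and 0.143 in neurons with Lhx6 or Nkx2-1, and with DESeq2 the median for progenitors with against without was -0.17. The causes of the changes below were not tested, except that leaving out a filter or a library changes the number of genes or samples tested.

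Counts of members past the threshold changed as follows for null against WT. With library totals they were 1 in neurons and 5 in neurons with Lhx6 or Nkx2-1, where DESeq2 gave 1. With no filter they were 2 in progenitors, 1 in neurons without, 1 in LGE-like neurons and 3 for the interaction. The interaction gave 0 with DESeq2, with doublets kept and on the thinned split, against 1.

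Counts of genes past the threshold moved further. With against without Lhx6 or Nkx2-1, 4330 genes passed in neurons, against 2813 with DESeq2 and 2254 without the library block. In progenitors 3591 passed, against 2390 with DESeq2, 1188 without the block and 5676 on the thinned split. For null against WT in neurons 10 passed, against 320 with DESeq2, 369 with library totals and 319 with no filter. In progenitors 4 passed, against 317 with DESeq2, 110 with library totals, 110 with doublets kept and 908 with no filter. In neurons without, 4 passed, against 107 with DESeq2, 19 with library totals, 134 with no filter, 16 at 5000 UMIs or more and 9 without the 3 clusters. In neurons with, 98 passed, against 339 with DESeq2, 736 with library totals, 0 with no filter, 21 at 5000 UMIs or more, 9 with doublets kept and 162 without the 3 clusters. In LGE-like neurons 12 passed, against 28 with DESeq2, 6 with library totals, 35 with no filter and 22 at 5000 UMIs or more. For the interaction 21 passed, against 0 with DESeq2, 11 with library totals, 144 with no filter, 12 with members in the clustering, 10 on the thinned split and 11 without the 3 clusters.

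Leaving out 1 library at a time gave ranges. Members past the threshold ran from 5 to 7 for neurons against progenitors, 4 to 5 for progenitors with against without, and, for null against WT, 0 to 1 in neurons, 0 to 3 in progenitors, 0 to 5 in neurons without, 0 to 5 in neurons with, 0 to 2 in LGE-like neurons and 0 to 3 for the interaction. Genes past the threshold ran from 3113 to 4108 in neurons with against without, 2198 to 3242 in progenitors with against without, and, for null against WT, 66 to 2703 in neurons, 25 to 3958 in progenitors, 26 to 1192 in neurons without, 72 to 3613 in neurons with, 5 to 493 in LGE-like neurons and 2 to 96 for the interaction. The highest null to WT counts in neurons, progenitors and neurons with or without came without null replicate 1.

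Signs of values near 0 changed. Foxp1 in neurons against progenitors was -0.00045 with doublets kept and ran from -0.051 to 0.15 over left-out libraries, and Six3 was 0.032 without the 3 clusters. Foxp1 in progenitors with against without was -0.0079 with DESeq2, -0.022 at 5000 UMIs or more and -0.064 without the 3 clusters, and ran from -0.019 to 0.0093.

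For null against WT in neurons, Isl1 was 0.12 with library totals, 0.011 with doublets kept and 0.010 without the 3 clusters, and at 5000 UMIs or more Foxp2 was -0.099 and Six3 -0.023. Over left-out libraries Ebf1 ran from -0.081 to 0.57, Isl1 from -0.22 to 0.19, Foxp2 from -0.14 to 0.23, Six3 from -0.10 to 0.14 and Zfp503 from -0.049 to 0.69. In progenitors Foxp2 was -0.012 with doublets kept and -0.015 with members in the clustering, and over left-out libraries Meis2 ran from -0.0027 to 0.57, Ebf1 from -0.20 to 0.96 and Foxp2 from -0.26 to 0.24.

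In neurons without, Six3 was -0.085 at 5000 UMIs or more and -0.033 on the thinned split, and ran from -0.014 to 0.067, while Foxp2 ran from -0.043 to 0.76. In neurons with, Isl1 was 0.13 with library totals, 0.051 with doublets kept, 0.0019 with members in the clustering and 0.0082 without the 3 clusters, and ran from -0.16 to 0.12. Foxp2 there was -0.11 at 5000 UMIs or more and ran from -0.088 to 0.17. In LGE-like neurons Isl1 was 0.090 with library totals, 0.010 with no filter and 0.014 at 5000 UMIs or more, and ran from -0.20 to 0.21. Six3 there was 0.066 at 5000 UMIs or more and ran from -0.25 to 0.043, Foxp2 ran from -0.18 to 0.51 and Zfp503 from -0.049 to 0.39. The interaction of Ebf1 was -0.13 on the thinned split.

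The difference of null minus WT in the share of LGE-like cells was 0.390 percentage points, against -0.739 at 5000 UMIs or more, and ran from -0.0506 to 0.831 over left-out libraries. On counts as deposited, without thinning, the share of neurons with a UMI was 31.0% for Meis2, 14.7% for Isl1, 23.2% for Foxp1, 7.99% for Foxp2, 13.0% for Six3, 11.2% for Ebf1 and 11.5% for Zfp503.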
